A study of Arabidopsis thaliana with 9 samples.

Results

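The genes described here are 46 Arabidopsis thaliana loci whose transcripts were strongly higher when the transcription factor AtGATA2 was overexpressed and stayed near the wild-type level in the brassinosteroid receptor mutant bri1-116. They were chosen from the array values themselves. Each had a probe set assigned to exactly 1 gene that the annotation names only by its locus code. On log2(intensity + 1), the AtGATA2ox mean lay at least 2 above the Col mean with no overlap of arrays, the bri1-116 mean lay between -0.58 and 0.58 of it, and the mean AtGATA2ox intensity was 200 or more. Of 11933 probe sets named by a locus code, 129 met the conditions on AtGATA2ox, and among these bri1-116 was above that range for 42, below it for 39 and inside it for 48. A named set of 5 loci was left out, of which 2 met the rule, and this left 46 of the 22746 probe sets tested in all. The AtGATA2ox and bri1-116 differences from Col therefore describe how the genes were picked, and no test is given for them.

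RNA was measured with 9 single-colour Affymetrix arrays, 3 for each genotype, in whole seedlings of the Columbia-0 ecotype kept 108 h in darkness on solid medium holding 1% sucrose. Col was the wild type. The bri1-116 seedlings were homozygous for a null allele of the brassinosteroid receptor gene and were hand-picked after freezing from a population segregating for it. AtGATA2ox was a transgenic line overexpressing AtGATA2 in the same background; the sources used here give neither the promoter of the transgene nor the number of lines. No label says that replicates came from separate cultures, so any p-value measures only the spread between these samples, which may be technical. The AtGATA2 and BRI1 transcripts had no named probe set and were not analysed here, so the array values do not check the genotype labels. The AtGATA2ox samples carry deposit numbers far from the consecutive run that Col and bri1-116 share, and the sources used here do not say when any array was hybridised. A separate hybridisation of the AtGATA2ox arrays and the genotype cannot be told apart, which bears on every difference between AtGATA2ox and Col given below.

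AtGATA2 belongs to the GATA zinc finger family, whose members bind DNA at GATA motifs. It promotes the light-grown form of seedling development, and its own gene is repressed when brassinosteroid signalling is active. Brassinosteroids bind the receptor kinase BRI1 at the cell surface and promote cell elongation, which keeps dark-grown seedlings tall and pale. Loss of BRI1 and gain of AtGATA2 are thus both known to make dark-grown seedlings shorter, and the genes described here are those that stood apart in only one of the genotypes by the rule above. Roles given below for the locus codes are family-level background from general knowledge of the Arabidopsis annotation, since the files name these genes by code only. The roles and the grouping by role were assigned after the members were known, and 10 members are given no role.

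**Figure D1:**
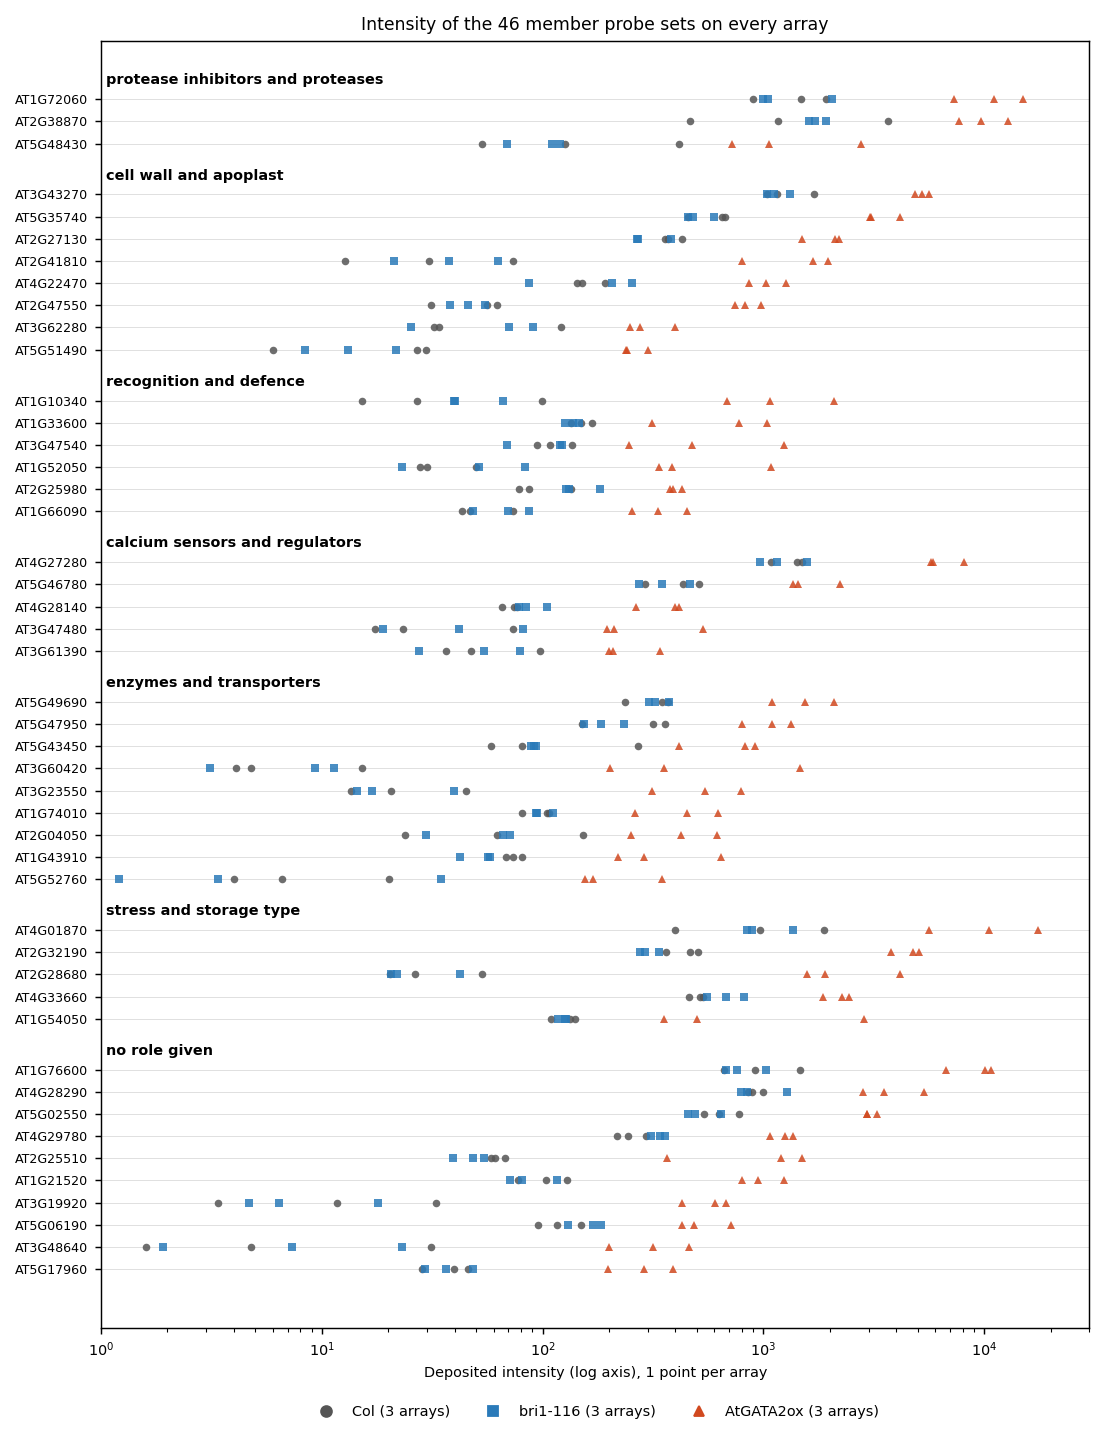
Deposited intensity on a log axis of each of the 46 members (rows, grouped by family-level role) on every array, with circles for Col, squares for bri1-116 and triangles for AtGATA2ox (3 arrays each). The AtGATA2ox triangles lie to the right of all Col and bri1-116 points in every row, by the rule for Col. The Col and bri1-116 points share a range in 40 of the 46 rows, which the rule's limit on bri1-116 favoured.

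The mean level of the members in AtGATA2ox ran from 224 to 11220, with 23 members at 1000 or more. Probe sets differ in how strongly they bind, so a level is compared only with the same probe set on other arrays. In Col the members' means ran from 8.03 to 1760.2, and in bri1-116 from 7.93 to 1749.5. The difference between AtGATA2ox and Col had a median of 2.67 on the log2 scale (range 2.02 to 6.2), beside a median of -0.17 over all probe sets tested. It lay between 2 and 3 for 28 members, between 3 and 4 for 9, and at 4 or more for the remaining 9. The lowest AtGATA2ox array was over 2-fold above the highest Col array for 41 members, and 1.55-fold above it for the closest one, AT5G43450. Non-overlapping arrays with AtGATA2ox higher were found for 15.6% of all probe sets tested. In limma's fit over all probe sets 9.72% were called higher in AtGATA2ox than in Col, at a Benjamini-Hochberg adjusted p under 0.05.

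In bri1-116 the members were spread on both sides of Col, 19 above and 27 below, with a median log2 difference of -0.10 (range -0.55 to 0.58), and 25 lay within 0.25 of it. The bri1-116 arrays did not overlap the Col arrays for 6 members, 3 higher and 3 lower, where 37.6% of all probe sets tested did not overlap. The rule's limit on the bri1-116 difference favoured overlap, so the lower share among the members follows at least in part from it. Of these 6, the higher ones were AT4G33660, AT4G29780 and AT4G28140, and the lower ones were AT2G32190, AT2G25510 and AT1G43910. All 46 members had AtGATA2ox arrays above every bri1-116 array, by at least 2.02-fold, where 14.5% of all probe sets did. That count follows largely from the rule, since AtGATA2ox and bri1-116 are compared through the same Col arrays. In limma's fit 15.1% of all probe sets were called in bri1-116 against Col, and 9.55% were called higher in AtGATA2ox than in bri1-116. AtGATA2ox stood above bri1-116 by a median of 2.72 on the log2 scale (range 1.44 to 6.39).

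**Figure D2:**
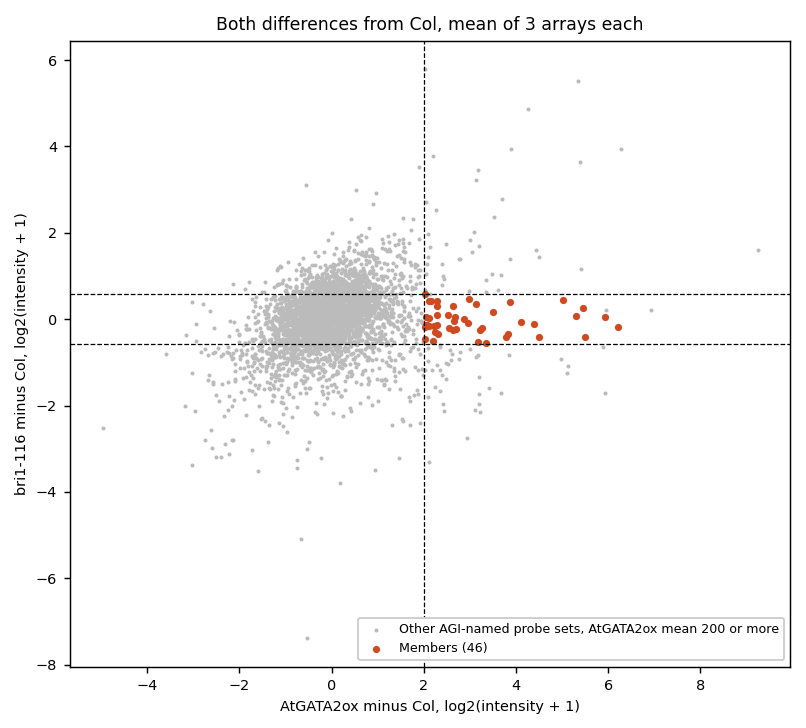
Difference of AtGATA2ox from Col (horizontal) against the difference of bri1-116 from Col (vertical), on log2(intensity + 1) from means of 3 arrays, for probe sets named by a locus code with an AtGATA2ox mean of 200 or more. Dashed lines mark the rule's limits of 2, -0.58 and 0.58, the 46 members are the large points between them, and both differences share the Col arrays.

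The limits of the rule cut through a continuous spread. Just inside the limit of 2 stood AT2G25980 (2.02), AT5G47950 (2.02) and AT5G46780 (2.03), and just outside it AT3G10930 (1.99), AT5G61890 (1.96) and AT5G37670 (1.95). At the upper bri1-116 limit AT2G25980 (0.579), AT2G38870 (0.48) and AT1G10340 (0.44) were inside, and AT1G69910 (0.581), AT5G07570 (0.63) and AT4G15975 (0.66) were outside. At the lower limit AT2G32190 (-0.55), AT5G48430 (-0.54) and AT1G43910 (-0.51) were inside, and AT5G12970 (-0.59), AT5G05600 (-0.65) and AT2G44380 (-0.67) were outside. The dimmest members, AT5G52760 (224 ± 107), AT3G61390 (250.3 ± 79.1) and AT5G51490 (259.5 ± 35.7; mean intensity ± SD, n = 3 here and below), lay next to AT4G02180, AT5G45630 and AT5G35870, whose AtGATA2ox means of 185, 168 and 160.1 kept them out.

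A group of 3 members act on proteases or belong to a protease family. AT2G38870, a serine protease inhibitor of the potato inhibitor I type, read 464, 3655 and 1162 on the Col arrays, 1612, 1707 and 1930.5 on the bri1-116 arrays and 7661, 12890.1 and 9669 on the AtGATA2ox arrays. AT1G72060, also of the serine protease inhibitor type, read 898, 1484 and 1918 in Col, 995, 1055 and 2045 in bri1-116 and 7286, 11068 and 15037 in AtGATA2ox. Such inhibitors are known for blocking digestive proteases of insects and microbes. Both were near 8-fold higher in AtGATA2ox (7.85-fold and 7.79-fold), and Col replicate 2 of AT2G38870 stood above all bri1-116 arrays while Col replicate 1 stood below them. AT5G48430, of the aspartyl protease family, was at 198 ± 191 in Col, 99.7 ± 27.3 in bri1-116 and 1519.9 ± 1103 in AtGATA2ox. Its highest Col array (414.8) came within 1.73-fold of its lowest AtGATA2ox array (718.7).

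Of 8 members placed in the cell wall and the space outside the membrane, 3 belong to the pectin methylesterase family, enzymes that remove methyl groups from wall pectin and so alter its stiffness. AT3G43270 read 1152, 1039 and 1703 in Col, 1035, 1121 and 1318 in bri1-116 and 5646, 4850.0 and 5237 in AtGATA2ox. AT2G47550 read 31.4, 62.3 and 55.8 in Col, 38.2, 54.9 and 46.1 in bri1-116 and 976, 823 and 747 in AtGATA2ox. AT3G43270 stood 4.13-fold and AT2G47550 17.3-fold higher in AtGATA2ox, and neither had an AtGATA2ox array within 2-fold of a Col or bri1-116 array. AT5G51490 was at 259.5 ± 35.7 in AtGATA2ox against 20.9 ± 12.9 in Col (14.3-fold). Its Col level lay in the range of array controls without a plant target, so this fold change is not exact.

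AT2G41810, of the plant-specific DUF642 family of wall-associated proteins, read 30.6, 12.7 and 73.7 in Col, 62.6, 37.5 and 21.2 in bri1-116 and 803, 1685 and 1968 in AtGATA2ox. AT5G35740, with the X8 domain that binds wall callose in related proteins, read 673, 649.9 and 457 in Col, 458, 481 and 595 in bri1-116 and 4179, 3080.0 and 3042 in AtGATA2ox. The difference of AT2G41810 was 5.44 and that of AT5G35740 2.54 on the log2 scale, and in neither did an AtGATA2ox array come near the other groups. For AT2G41810 the Col readings of 30.6 and 12.7 lay below 37.2, the largest mean in Col of a control without a plant target. Its difference is therefore not exact. AT2G27130, of the lipid transfer protein type, small secreted proteins that carry lipids, read 368, 428 and 357 in Col, 271, 384 and 268 in bri1-116 and 2207, 1501 and 2113 in AtGATA2ox. AT4G22470, of the same type, was at 162 ± 26.7, 183 ± 86.7 and 1053 ± 207 in the same order of genotypes. AT3G62280, of the GDSL lipase family, was 5.78-fold higher in AtGATA2ox, at 307 ± 79.6.

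Members tied by family to recognition and defence numbered 6, all at or below 150.6 in Col. AT1G10340, an ankyrin repeat protein gene, read 27.0, 99.5 and 15.2 in Col, 40.2, 66.5 and 39.9 in bri1-116 and 687, 1074 and 2091 in AtGATA2ox. AT1G52050, of the jacalin lectin family of sugar-binding proteins, read 50.1, 27.9 and 29.9 in Col, 83.1, 51.5 and 23.2 in bri1-116 and 1084, 388 and 338 in AtGATA2ox. For AT1G52050 replicate 1 of AtGATA2ox was the highest, and for AT1G10340 it was the lowest of the AtGATA2ox arrays. A second jacalin family gene, AT2G25980, was 4.06-fold higher and had an even level over the AtGATA2ox arrays (427, 379 and 388). AT1G66090, of the TIR-NBS family of intracellular immune receptor-type proteins, was at 346 ± 99.7 against 54.5 ± 16.3 in Col. AT1G33600, of the leucine-rich repeat family, was at 710.2 ± 369 against 151 ± 16.5, and AT3G47540, of the chitinase family that cuts fungal wall chitin, at 655 ± 523 against 113 ± 21.1. In AT3G47540 the AtGATA2ox arrays ran over 5.04-fold, from 247 on replicate 3 to 1244 on replicate 2.

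The calcium sensor and regulator group held 5 members. AT4G27280, which encodes an EF-hand protein, a small sensor that binds calcium, read 1085, 1499 and 1421 in Col, 1580.2, 1155 and 970.0 in bri1-116 and 5736, 5854 and 8134 in AtGATA2ox. AT5G46780, of the VQ motif family that partners WRKY transcription factors, read 291, 509 and 432 in Col, 273, 347 and 466 in bri1-116 and 1443, 1368 and 2221 in AtGATA2ox. Their Col and bri1-116 arrays overlapped, and every AtGATA2ox array was at least 2.69-fold above the highest Col array. AT3G47480, another EF-hand gene, was at 38.0 ± 30.7 in Col and 47.4 ± 31.7 in bri1-116 against 314 ± 192 in AtGATA2ox. AT4G28140, of the AP2/ERF transcription factor family, was 4.84-fold higher in AtGATA2ox, and its bri1-116 arrays (78.2, 105 and 84.4) lay just above its Col arrays (65.3, 76.8 and 74.1). AT3G61390, of the U-box family of ubiquitin ligases, was 4.33-fold higher.

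Enzymes and transporters made up 9 members, with Col means from 8.03 to 317.6. AT5G49690, of the UDP-glycosyltransferase family that attaches sugars to small molecules, read 235, 347 and 370.3 in Col, 375, 322 and 305 in bri1-116 and 1089.5, 2100.1 and 1541 in AtGATA2ox. AT3G23550, of the MATE family of efflux carriers, read 45.2, 13.6 and 20.6 in Col, 14.5, 16.9 and 39.9 in bri1-116 and 546, 789 and 312 in AtGATA2ox. AT5G52760, with a heavy metal-associated domain, read 20.2, 4 and 6.6 in Col, 1.2, 3.4 and 34.7 in bri1-116 and 155, 347 and 169 in AtGATA2ox. The starting level of the latter pair was in the range of array controls without a plant target, so only the first of these genes has a fold change (4.87-fold) measured between levels above that range. A second MATE gene, AT2G04050, was 6.52-fold higher (431 ± 183 against 79.5 ± 66.3). The remaining enzymes were AT5G47950, of the HXXXD acyltransferase family (4.07-fold), AT5G43450, of the 2-oxoglutarate and iron oxygenase family (6.24-fold), the strictosidine synthase-like gene AT1G74010 (4.3-fold) and the AAA-type ATPase gene AT1G43910 (4.59-fold).

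AT3G60420, of the phosphoglycerate mutase family, was the one member whose locus had another probe set. The member probe set read 4.8, 15.2 and 4.1 in Col, 3.1, 11.4 and 9.3 in bri1-116 and 202, 1469 and 357 in AtGATA2ox, a log2 difference of 5.92. The other probe set of the locus read 5.2, 8.3 and 4.5 in Col, 2.0, 1.9 and 10.3 in bri1-116 and 7.7, 22.9 and 2.7 in AtGATA2ox. It stayed within the range of controls without a plant target on all arrays, with a log2 difference of 0.43, so the probe sets of this locus disagreed. Replicate 2 was the highest AtGATA2ox array for both. For the other 45 members a single probe set carries the value.

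Stress and storage-type proteins made up 5 members. AT4G01870, a TolB-related gene, read 398, 965 and 1881 in Col, 893, 841 and 1363 in bri1-116 and 5655, 17487 and 10516 in AtGATA2ox. AT2G28680, of the cupin family that includes seed storage proteins, read 20.3, 26.5 and 53.3 in Col, 21.9, 20.6 and 42.2 in bri1-116 and 1583, 1912 and 4174 in AtGATA2ox. Its lowest AtGATA2ox array was 29.7-fold above its highest Col array, and its Col mean of 33.4 lay in the range of the array controls. Its difference of 6.2 is therefore not exact. AT2G32190 and AT4G33660 encode small proteins with a cysteine-rich transmembrane module. AT2G32190 read 363, 464 and 505 in Col, 338, 275 and 291 in bri1-116 and 3789.6, 5083 and 4764 in AtGATA2ox. AT4G33660 read 519, 532 and 458 in Col, 679, 554 and 815 in bri1-116 and 1866, 2265 and 2445 in AtGATA2ox. The bri1-116 arrays of this pair left the Col range in opposite directions, lower for AT2G32190 and higher for AT4G33660. AT1G54050, of the small heat shock protein type, had the widest range among AtGATA2ox arrays, 8.09-fold, with 502.6, 2871 and 354.8 against 133, 141 and 109 in Col.

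The members without a given role had AtGATA2ox means from 291.3 to 9230.0 and Col means from 12.6 to 1017. AT1G76600 read 914, 666 and 1471 in Col, 677, 762 and 1024 in bri1-116 and 6754, 10793 and 10143 in AtGATA2ox. AT4G28290 read 996, 848 and 892 in Col, 1283, 789 and 839.6 in bri1-116 and 3508, 2815 and 5363 in AtGATA2ox. Every AtGATA2ox array of these genes was at least 2.83-fold above their highest Col array. AT5G02550 had the smallest ratio of highest to lowest AtGATA2ox array among the members (1.12), with 2935, 2948 and 3286 against 541, 628 and 778 in Col and 491, 455 and 642 in bri1-116. In contrast AT3G19920 and AT3G48640 were near the lower end of the scale outside AtGATA2ox. AT3G19920 read 3.4, 32.9 and 11.7 in Col, 4.7, 6.4 and 18 in bri1-116 and 429, 605 and 675 in AtGATA2ox. AT3G48640 read 1.6, 31.4 and 4.8 in Col, 1.9, 23.1 and 7.3 in bri1-116 and 201, 316 and 461 in AtGATA2ox. The last 5 were AT4G29780 (4.87-fold), AT2G25510 (13.8-fold), AT1G21520 (9.58-fold), AT5G06190 (4.46-fold) and AT5G17960 (7.33-fold).

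**Figure D3:**
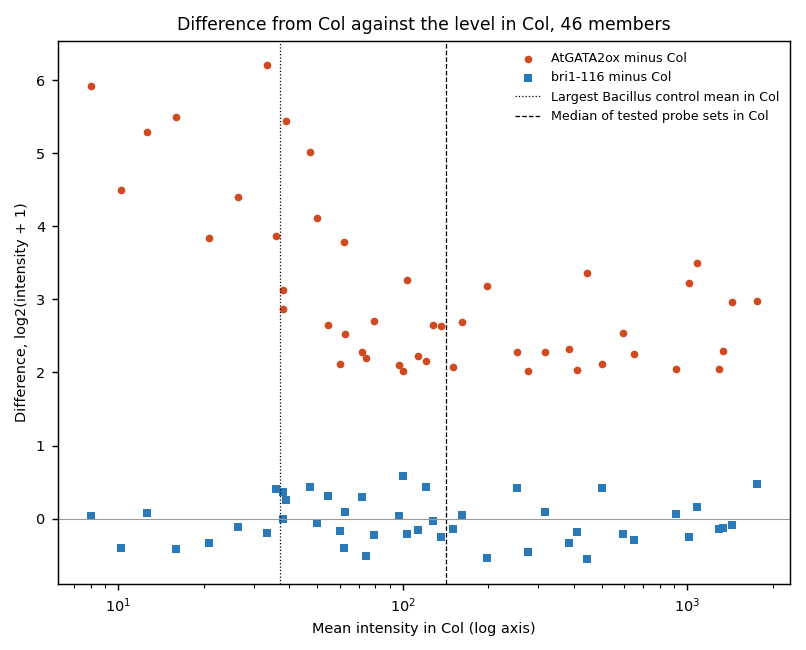
Difference from Col on log2(intensity + 1) against the mean intensity in Col (log axis) for the 46 members, with circles for AtGATA2ox and squares for bri1-116. The dotted line is the largest mean of a Bacillus control in Col (37.2), the dashed line the median of tested probe sets in Col (141.6), and all differences of 4 or more lie left of the dashed line.

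The difference is set out here by the level in Col, which it contains with a minus sign and which the rule used, so the relation is a description only. The 19 members above the median level of tested probe sets in Col (141.6) differed from Col by 2.02 to 3.5 on the log2 scale, with a median of 2.29. The other 27 had a median of 3.13 and reached 6.2. In Col 8 members were at or below 37.2, the largest mean among the Bacillus controls, probe sets without a plant target, so their Col level may be background. The differences of these 8 ran from 3.83 to 6.2 and are not exact. Their AtGATA2ox means ran from 224 to 2556. The rule's limit of 200 placed them in advance above the largest Bacillus control mean on the AtGATA2ox arrays (61.8).

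The AtGATA2ox arrays did not carry the members equally. Replicate 1 was the lowest of the AtGATA2ox arrays for 27 members, replicate 2 for 8 and replicate 3 for 11, and the median deviation of the members from their AtGATA2ox mean was -0.27 (log2) on replicate 1 against 0.09 over all probe sets tested. Col replicate 1 deviated likewise (-0.25 for the members, 0.00 over all probe sets). The AtGATA2ox arrays of a member spanned less than 2-fold for 26 members and more than 4-fold for 4. Those 4 were AT1G54050, AT3G60420, AT3G47540 and AT2G25510. In the first 3 of them replicate 2 was the highest, and in AT2G25510 replicate 1 was the lowest (364.5 against 1202.5 and 1504.9). Arrays of a genotype correlated at 0.891 to 0.941 and arrays of different genotypes at 0.848 to 0.911 (Pearson r across probe sets, which are not independent replicates). Signal at the 3′ end over the 5′ end of control transcripts, a measure of RNA integrity, was read for 3 probe set groups. One actin ratio was 4.8 ± 0.99 in AtGATA2ox against 1.91 ± 0.11 in Col and 3.82 ± 1.02 in bri1-116, and the other 33.1 ± 10.6 against 11.8 ± 3.4 and 21.3 ± 10.5. The ubiquitin ratio was 3 ± 0.73 in AtGATA2ox against 2.27 ± 0.08 in Col and 3.02 ± 0.57 in bri1-116. The part of RNA integrity in the members' levels was not tested.

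The members were spread over the genome, with 10 on chromosome 1, 9 each on chromosomes 2 and 3, 7 on chromosome 4 and 11 on chromosome 5. The shares, 21.7%, 19.6%, 19.6%, 15.2% and 23.9%, stood beside 26%, 16.5%, 20.5%, 14.4% and 22.6% of all probe sets named by a locus code. Only AT3G47480 and AT3G47540, with 6 loci between them, and AT4G28140 and AT4G28290, with 17 between them, lay within 20 loci of each other in RefSeq gene order (TAIR10.1). All 46 were protein coding, and their median gene length was 1652 bp against 2081 bp for 11751 loci named by code.

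Position was not used to choose the members, so their neighbours could be tested. The 2 nearest loci on each side with a named probe set gave 184 neighbours, none of them a member. In limma's fit over all probe sets 23 of these were called higher in AtGATA2ox than in Col and 23 lower, that is 12.5% in each direction beside 9.72% higher and 18.8% lower of all probe sets tested, and 138 were not called. Their median difference was -0.03 beside -0.17 over all probe sets. Of 43 neighbours with no locus between them and the member, 8 rose (18.6%), 3 fell and 32 were not called, with a median of 0.19. With scaling to the hybridisation controls 2 of these rose and 19 fell (median -0.86), and without Col replicate 1, 2 or 3 only 1 fell.

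**Figure D4:**
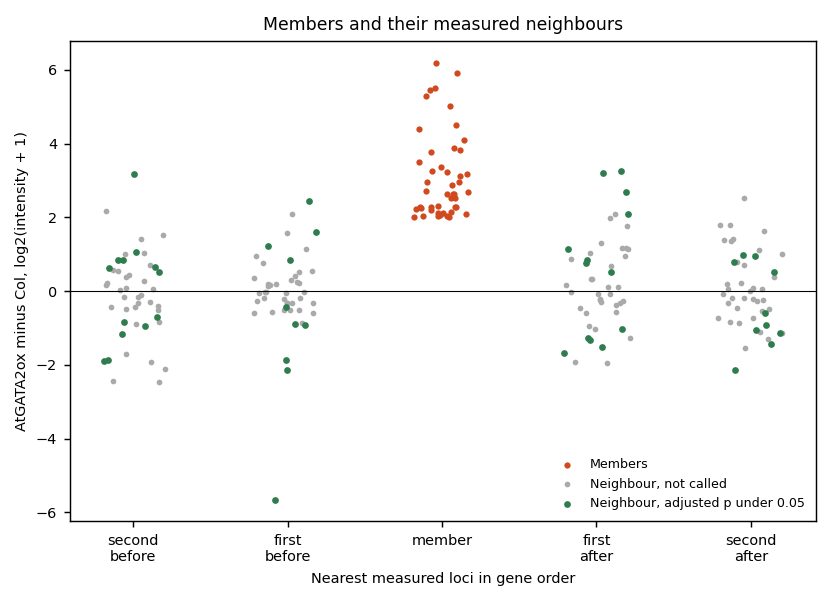
Difference of AtGATA2ox from Col on log2(intensity + 1) for the 46 members (centre) and for the 2 nearest measured loci on each side, 184 in all. Neighbours with a limma adjusted p under 0.05 are drawn darker, 23 above and 23 below 0, and the neighbours spread to both sides of 0, with a median of -0.03 over all 184 and 0.19 over the 43 directly adjacent ones.

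Among the directly adjacent loci AT4G33666, next to AT4G33660, rose to 4067 ± 1590 from 423 ± 116 (log2 difference 3.21 ± 0.32, limma adjusted p = 9.2e-06). AT4G33666 fell in bri1-116, to 128 ± 40.8 (-1.73 ± 0.32, limma adjusted p = 0.002). AT5G52750, which shares the heavy metal-associated domain with its neighbour AT5G52760, rose to 794 ± 296 from 199 ± 192 (2.44 ± 0.61, limma adjusted p = 0.0087). It fell to 30.6 ± 2.96 in bri1-116 (limma adjusted p = 0.031), a level in the range of the Bacillus controls. AT2G41800, a DUF642 gene like the adjacent AT2G41810, rose to 448 ± 148 from 143 ± 36.3 (1.6 ± 0.34, limma adjusted p = 0.003) and fell to 60.8 ± 5.05 in bri1-116 (limma adjusted p = 0.029). In bri1-116 3 of the 43 adjacent loci rose and 4 fell, beside 7.09% and 8% of all probe sets tested. The other fall was of AT3G47550 (-0.66 ± 0.17, limma adjusted p = 0.02), and the rises were of AT5G02540 (0.81 ± 0.15, limma adjusted p = 0.0023), AT4G28150 (0.83 ± 0.26, limma adjusted p = 0.048) and AT3G47490 (0.64 ± 0.2, limma adjusted p = 0.046). The bri1-116 calls of these adjacent loci were made on the deposited scale only and were not recomputed under the alternatives. Whether members and adjacent loci differed from each other in bri1-116 was not tested. Probe sequences were not used here, so cross-hybridisation between related neighbours was not tested. With scaling to the hybridisation controls AT5G52750 (1.39, limma adjusted p = 0.073) and AT2G41800 (0.55, limma adjusted p = 0.25) were not called in AtGATA2ox.

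AT1G33590, a leucine-rich repeat gene beside AT1G33600, rose to 1288 ± 552 from 674 ± 44.8 (0.85 ± 0.25, limma adjusted p = 0.02), a call lost without AtGATA2ox replicate 2 (limma adjusted p = 0.054) and without Col replicate 1 (0.062) or 2 (0.061). AT4G28300 (1.15 ± 0.22), AT3G47490 (0.85 ± 0.2) and AT2G25520 (0.52 ± 0.13) rose beside AT4G28290, AT3G47480 and AT2G25510, and with scaling to the hybridisation controls these 3 were at 0.1, -0.2 and -0.53 and AT1G33590 at -0.2. AT2G25520 was not called with quantile normalisation (0.18). AT3G48650, beside AT3G48640, rose to 47.0 ± 21.7 from 4.07 ± 2.22 (3.26 ± 0.77, limma adjusted p = 0.0062), levels within the range of the Bacillus controls. The falls were of AT5G02540 beside AT5G02550, to 525 ± 59.9 from 2332 ± 388 (-2.14 ± 0.15, limma adjusted p = 5.3e-07), AT1G10330 beside AT1G10340 (-1.86 ± 0.61) and AT4G27270 beside AT4G27280 (-0.93 ± 0.3). The falls of AT1G10330 and AT4G27270 were not called with quantile normalisation (limma adjusted p = 0.088 and 0.25), and both calls were lost without AtGATA2ox replicate 2 or without any 1 of the Col replicates. AT4G22460, of the lipid transfer protein type like the member AT4G22470 and with 2 loci between them, fell to 78.5 ± 87.6 from 2627 ± 706 (-5.66 ± 0.59, limma adjusted p = 1.4e-05), and to 145 ± 12.7 in bri1-116 (limma adjusted p = 0.0003).

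The rest of the calcium and touch response was taken from a list of 16 genes known to answer mechanical or calcium stimuli. Like the lists further below, it was drawn up with earlier results of these data known, so its counts are a description and not independent support. It held the members AT4G27280 and AT3G47480, and 9 further genes were measured, that is, had a probe set that the annotation assigns to exactly 1 gene. Of these 6 rose in AtGATA2ox, none fell and 3 were not called in limma's fit, with the same 6 and 0 at an unadjusted p under 0.05, and 4 and 0 with limma without an intensity trend. The list's median difference was 1.48 beside -0.17 over all probe sets tested, and 9.72% of those were called higher. AT1G76640, a calmodulin-like gene, rose from 43.8 ± 34.1 to 2311 ± 333 (5.93 ± 0.51, limma adjusted p = 2.8e-06). It fell in bri1-116, to 11.2 ± 4.66 (-1.7, limma adjusted p = 0.039), a level in the range of the Bacillus controls. CML37 rose from 20.6 ± 21.8 to 429 ± 308 (4.56 ± 0.99, limma adjusted p = 0.0036) and CML38 from 82.7 ± 50.6 to 489 ± 323 (2.54 ± 0.56, limma adjusted p = 0.0041). The Col level of CML37 was in the range of the Bacillus controls, so its difference is not exact. In bri1-116 CML37 and CML38 were at 31.4 ± 25.3 and 71.2 ± 30.6 and were not called (limma adjusted p = 0.88 and 0.94). AT5G39670 (1.48 ± 0.46), CML41 (1.64 ± 0.52) and AT2G46600 (0.57 ± 0.17) rose as well, though AT2G46600 was lower with scaling to the hybridisation controls (-0.48, limma adjusted p = 0.039). CML23, CML42 and CML43 were at -0.38, -0.2 and -0.17 and were not called. With that scaling 3 of the 9 were higher and 4 lower, and 4 were called higher without AtGATA2ox replicate 2 or 3 or Col replicate 1 or 3. In bri1-116 1 of the 9 rose, AT2G46600, and 3 fell, AT1G76640, CML23 and CML42, beside 7.09% higher and 8% lower of all probe sets tested. With limma without a trend 1 rose there and 1 fell.

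Defence lists were covered by few named probe sets. A gene not counted as measured may still have a probe set on the arrays, since only probe sets assigned to exactly 1 gene were used for the lists. The counts of called genes below stand beside 9.72% higher and 18.8% lower in AtGATA2ox of all probe sets tested. No list was tested as a set. Of the rapid elicitor response genes 3 of 16 were measured and 2 rose: the zinc finger gene STZ, to 2692 ± 150 from 380 ± 206 (3.03 ± 0.41, limma adjusted p = 0.00011), and WRKY22 (1.34 ± 0.19, limma adjusted p = 0.00018). STZ was at 241 ± 92.6 in bri1-116 (-0.53, limma adjusted p = 0.49), while WRKY22 rose there as well (1.35, limma adjusted p = 0.00032), and with scaling to the hybridisation controls WRKY22 lost its call in AtGATA2ox (0.29). Both measured jasmonate and wounding genes, THI2.1 and PDF1.2, and the 1 measured salicylate gene, SAG101, were not called by limma with or without an intensity trend or at an unadjusted p under 0.05. Of 2 light-induced genes measured none was called in AtGATA2ox by limma with or without a trend, and 1, HYH, had an unadjusted p under 0.05. The other, CHIL, was at 14.7 ± 9.63 in AtGATA2ox and rose in bri1-116, to 163 ± 45.2 from 29.1 ± 27.9 (2.79 ± 0.79, limma adjusted p = 0.028), a call not made without a trend. Its Col and AtGATA2ox levels were in the range of the Bacillus controls. Further lists were found by words in RefSeq symbols and synonyms. Higher and lower calls were 4 and 0 of 9 genes found by EF-hand or calmodulin words, all 4 of them on the touch list. They were 2 and 0 of 7 WRKY genes, WRKY22 and WRKY6. At an unadjusted p under 0.05 these counts were 5 and 0 and 2 and 0, and with limma without a trend 4 and 0 and 2 and 0. Higher and lower calls were 7 and 8 of 43 UDP-glycosyltransferases, 2 and 5 of 12 glutathione S-transferases and 1 and 3 of 9 peroxidases. They were 1 and 6 of 28 genes found by cytochrome P450 words, 0 and 1 of 2 chitinase or thaumatin genes, and 1 and 0 of 1 zinc finger gene, which was STZ. Without a trend they were 5 and 6 for UDP-glycosyltransferases, 0 and 4 for glutathione S-transferases, 1 and 3 for peroxidases and 2 and 5 for cytochrome P450 words. At an unadjusted p under 0.05 they were 10 and 8, 2 and 5, 1 and 3, and 1 and 7 in that order. The chitinase or thaumatin and the zinc finger counts were the same either way. The cytochrome P450 words also caught SQN, CYP59, CYP71 and AT4G33060, which belong to the cyclophilins and are not cytochrome P450 genes. The EF-hand or calmodulin words also caught AT4G35987, a calmodulin methyltransferase gene. None of these genes was called in AtGATA2ox by limma with a trend. Neither the brassinosteroid pathway list nor the GATA factor list had a gene with a probe set assigned to exactly 1 gene, so these lists were not examined.

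Markers of tissues that whole seedlings contain were sparse too. The shoot marker PORB was present in all genotypes, at 6632 ± 1120 in Col, 15020 ± 1270 in bri1-116 and 9887 ± 1780 in AtGATA2ox (0.57 ± 0.19, limma adjusted p = 0.033, and -0.48 with scaling to the hybridisation controls). That call was lost with quantile normalisation (0.2, limma adjusted p = 0.48), without a trend (limma adjusted p = 0.1), without AtGATA2ox replicate 1 or 2 and without Col replicate 2 or 3. Of 10 root markers 3 were measured, and the root hair expansin EXPA18 fell from 80.5 ± 19.5 to 16.2 ± 13 (-2.59 ± 0.75, limma adjusted p = 0.02; not called without AtGATA2ox replicate 2, Col replicate 1 or Col replicate 2), while EXPA7, another root hair expansin, was at 34.9 ± 23.9 in Col and 57.4 ± 58.2 in AtGATA2ox (0.4, limma adjusted p = 0.76) and AT5G44020 was at 15920 ± 547 in Col and 14811 ± 1370 in AtGATA2ox. The AtGATA2ox levels of EXPA18 and EXPA7 were in the range of the Bacillus controls, so the differences of both are not exact. Of 14 seed and embryo markers 3 were measured. Of these the cupin-type seed storage gene PAP85 rose to 238 ± 108 from 46.3 ± 19.5 (2.29 ± 0.51, limma adjusted p = 0.0041; 1.24, limma adjusted p = 0.063, on the scale of the hybridisation controls), and AT2G28490 and AT5G35660 were at 18.2 ± 22.3 and 11.1 ± 9.46 in AtGATA2ox, in the range of the Bacillus controls. PAP85 was at 44.4 ± 1.71 in bri1-116 (limma adjusted p = 0.99). The part of tissue make-up in the members' levels was not tested, and fewer cells of a type cannot be told apart from less RNA per cell.

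**Figure D5:**
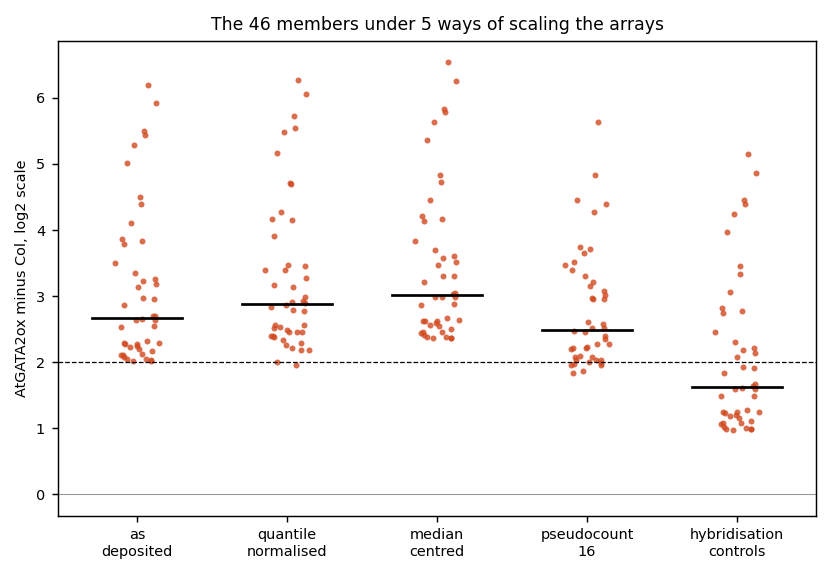
Difference of AtGATA2ox from Col on the log2 scale for the 46 members under 5 ways of scaling the arrays, with black bars at the medians and a dashed line at the rule's limit of 2. All points stay above 0, and the median moves from 2.67 as deposited to 2.88, 3.01, 2.49 and 1.62 from left to right.

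The deposited arrays shared one mean after trimming, but their medians and hybridisation controls still differed. The members' difference depends on how the arrays are put on one scale. The Col arrays had a median intensity of 140 ± 6.6, the bri1-116 arrays of 127 ± 6.86 and the AtGATA2ox arrays of 111 ± 10.7, and the spiked-in RNAs that serve as hybridisation controls averaged, on the log2 scale, 10.1 ± 0.09, 10.6 ± 0.17 and 11.2 ± 0.23 in the same order. Every member remained higher in AtGATA2ox than in Col with quantile normalisation, centring on the median, a pseudocount of 16 and scaling to the hybridisation controls, the smallest difference being 0.97 with the last of these. With the pseudocount that direction was fixed in advance, since the rule took only genes whose AtGATA2ox and Col arrays did not overlap. With scaling to the hybridisation controls the members' median was 1.62 in AtGATA2ox and -0.58 in bri1-116, and 8 of the 46 still met the rule, which were AT4G01870, AT2G41810, AT1G10340, AT2G47550, AT3G60420, AT1G52050, AT3G48640 and AT3G47480. With quantile normalisation and with centring on the median 44 of 46 each still met it.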

How the data were processed

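Whole dark-grown seedlings of 3 genotypes were measured on 9 single-colour arrays of 22810 probe sets, 64 of them controls. The deposited intensity values are linear. The submitters' processing notes name MAS5 and GCRMA with no role or version, and each array's mean after trimming 2% at both ends was 500 in the deposited values, so the authors had scaled the arrays. Genes were taken from the platform annotation given with the series, and gene order, length and symbols from RefSeq (TAIR10.1). The genome build of the files is not given in the sources used here.

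From these values log2(intensity + 1) was computed, without further scaling. Probe sets other than controls (22746) were fitted with limma 3.58.1 in R 4.3.3 over all 9 arrays with an intensity trend (6 residual degrees of freedom). P-values were adjusted by Benjamini-Hochberg over all 22746 and called under 0.05, and the fit was tested on simulated data. The number of arrays limits the precision. Where a gene had several probe sets, the brightest by mean over all arrays stood for it.

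The members and gene lists were chosen with earlier results of these data known, and members were not tested. Of the members, the 15 with the highest AtGATA2ox mean and the 10 with the largest difference are given on every array. Called adjacent loci are named, and up to 4 called genes per list by adjusted p; AT4G22460, AT5G39670, CML41, AT5G44020 and genes not called were named after their values were seen. Lists used only the 13513 probe sets that the annotation assigns to exactly 1 gene, and a gene with such a probe set is called measured. Other lists searched, for epidermis, vascular tissue and, by words in symbols, cupin or germin, pectinesterase or invertase inhibitor, receptor-like kinase and lipid transfer genes, had no measured gene. Such genes may still have other probe sets on the arrays. Product names were not used here, so lists found by words are partial.

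The alternatives tried were centring on the median, quantile normalisation, scaling to the hybridisation controls, a pseudocount of 16, leaving out the dimmest 40% of probe sets, no intensity trend, the replicate number as a block, and leaving out each array.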

Additional observations from a re-analysis of the deposited data

How the results depend on the processing

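The count of genes meeting the rule, 46 as deposited, was 72 after centring on the median, 12 with scaling to the hybridisation controls and 131 with limits of 1.5 and -1 to 1. It ran from 37 to 52 with 1 array left out, and 19 members met the rule without each of the 9 arrays in turn. The members' median difference of 2.67 fell by scaling to the hybridisation controls, to 1.62, and was 2.49 to 2.92 with 1 array left out. None of 644 recomputed member values changed sign. The rule allowed no overlap with Col, which fixed the sign in advance for the settings that leave out 1 array. The same holds for the other pseudocount and for leaving out the dimmest probe sets. Only quantile normalisation, centring on the median and scaling to the hybridisation controls could have changed the sign. AtGATA2ox against Col gave 2211 probe sets higher and 4275 lower as deposited, 2676 and 3008 with quantile normalisation, 3463 and 2499 after centring, and 421 and 12046 with hybridisation controls. The bri1-116 counts of 1612 and 1819 were 479 and 3691 with hybridisation controls and 976 and 1128 without a trend. With 1 array left out they ran from 1055 to 1900 higher and from 1097 to 2215 lower, both lowest without Col replicate 2. Of the 184 neighbours, 23 higher and 23 lower as deposited, 14 were lower after centring, 3 were higher and 90 lower with hybridisation controls, and 15 were higher without a trend. Of the 43 adjacent loci, 8 higher and 3 lower as deposited, 1 was lower with quantile normalisation, after centring and without a trend. With hybridisation controls 2 were higher and 19 lower, and leaving out 1 array gave 1 to 3 lower. On the touch and calcium list, 6 and 0 as deposited, the hybridisation controls gave 3 higher and 4 lower. That scaling turned the sign of AT1G33590 (-0.2), AT2G25520 (-0.53), AT2G46600 (-0.48), AT3G47490 (-0.2) and PORB (-0.48). The cause of these moves was not tested.

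With the replicate number as a block, AtGATA2ox against Col gave 2204 higher and 4256 lower, bri1-116 against Col 1584 and 1855, and the touch and calcium list 6 and 0. Deviations of same-numbered arrays correlated at -0.018 to 0.018 over all probe sets tested, so the numbers were taken as names only. For the members alone, the median deviation on replicate 1 was -0.27 in AtGATA2ox, -0.25 in Col and -0.01 in bri1-116. A replicate effect shared by the members was not tested. Differences from a Col level in the range of the Bacillus controls are inexact, and 45 of 46 members rest on 1 probe set. Searches for paralogues and for promoter motifs, with their alternatives, were not run, as sequences were not used here.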
